A study of Arabidopsis thaliana with 4 samples.

Results

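Genes without a read in wild-type Arabidopsis inflorescence apices that held reads in apices mutant for MP and CLV3 are described here. They were chosen from the deposited read numbers: 0 reads in wild type (WT) and at least 20 reads in mp clv3, with 1 row of shifted cells left out. The rule selected 90 of 27322 gene models, or 0.329%. The tissue was the shoot apex of inflorescences, with older flowers removed, from plants grown for 6 weeks in soil at 22°C under 16 h of light. The mutant line carried mp319 and clv3-7, and the WT was Col-0. Both genotypes had 2 biological replicates per the labels. Only 1 column of read numbers was given for each genotype, without saying if it pools both replicates, so no difference below has a replicate check. Because the rule used the comparison of mp clv3 with WT, the read numbers of the 90 genes are a description, with no test.

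MP (MONOPTEROS) is an auxin response factor that promotes organ initiation at the flanks of the shoot meristem, and CLV3 (CLAVATA3) is the secreted peptide that restrains the stem cell pool at its centre. Many plant defence genes are kept off in undisturbed tissue and are switched on by pathogens, wounding or chemical stress through the hormones salicylate, jasmonate and ethylene. Such genes often lie in tandem clusters, arrays of neighbouring copies that arose by local duplication, and encode secreted antimicrobial proteins, receptors or detoxifying enzymes.

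Summed over models, mp clv3 had 103347441 reads and WT had 101878433. The targeted genes had 5063 reads in mp clv3, against 15849 in WT for MP, and 1278 in mp clv3, against 2 in WT for CLV3. The sources used here do not describe the lesions, so these reads do not check the genotypes. All 8 shoot meristem markers examined were detected in both genotypes, with 59990 summed reads in mp clv3, against 29987 in WT. The authors' deposited table called 4 of them higher and 1 lower in mp clv3, with a false discovery rate below 0.05 and 2-fold or more. Those criteria called 9.85% of all models higher and 21.3% lower. WUS had 2771 reads in mp clv3, against 294 in WT, and KNAT1 had 2125 in mp clv3, against 8319 in WT. Of 10 root markers, 7 had 0 reads in mp clv3 and 5 had 0 in WT. The senescence marker SAG12 had 2 reads in mp clv3, against 0 in WT, while SAG13 had 2544 in mp clv3, against 4 in WT. Summed reads of the other marker lists were 87 in mp clv3, against 208 in WT for 11 seed and embryo genes, 81 in mp clv3, against 971 in WT for 3 pollen genes, and 320347 in mp clv3, against 666322 in WT for 5 mature leaf genes. The part of tissue composition in the results below was not tested, and in bulk apices more cells of a type and more RNA per cell cannot be told apart. Housekeeping genes were not at 0: 8 of them held between 3116 and 279314 reads in mp clv3 and between 3677 and 278767 in WT.

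The sequences that bear most directly on the set are those of its tandem copies. PDF1.2 and PDF1.2c encode plant defensins, small secreted antifungal proteins, and lie side by side on chromosome 5. PDF1.2b, on chromosome 2, is their close copy and lies outside the set. The coding sequences below are shown to compare copies with and without reads. They are from RefSeq (build TAIR10.1), 5′ to 3′, joined over exons, and capitals mark the positions that differ among the 3 genes. The gene spans are chr5:17906968-17907638 (minus strand) for PDF1.2, chr5:17908850-17909507 (minus strand) for PDF1.2c and chr2:11089123-11089805 (plus strand) for PDF1.2b.
PDF1.2: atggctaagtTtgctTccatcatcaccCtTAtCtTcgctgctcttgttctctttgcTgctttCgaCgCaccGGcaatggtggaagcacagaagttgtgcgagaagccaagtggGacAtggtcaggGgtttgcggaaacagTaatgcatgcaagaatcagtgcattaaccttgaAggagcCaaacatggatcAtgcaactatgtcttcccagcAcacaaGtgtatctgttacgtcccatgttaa
PDF1.2c: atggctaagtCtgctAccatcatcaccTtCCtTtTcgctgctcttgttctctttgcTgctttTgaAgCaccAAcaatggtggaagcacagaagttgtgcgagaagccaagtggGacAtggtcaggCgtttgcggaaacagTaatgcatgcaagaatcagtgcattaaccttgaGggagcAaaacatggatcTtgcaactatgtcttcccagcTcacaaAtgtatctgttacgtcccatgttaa
PDF1.2b: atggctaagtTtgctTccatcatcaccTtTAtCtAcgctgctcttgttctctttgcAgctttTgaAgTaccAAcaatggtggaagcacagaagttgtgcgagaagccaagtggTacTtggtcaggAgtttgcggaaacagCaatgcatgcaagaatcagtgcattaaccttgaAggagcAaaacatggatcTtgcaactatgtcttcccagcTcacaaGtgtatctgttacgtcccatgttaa
Over 243 bases, PDF1.2c differed from PDF1.2 at 16 positions (93.4% identity) and PDF1.2b differed from PDF1.2 at 15 (93.8% identity). PDF1.2 held 472 reads in mp clv3, against 0 in WT, PDF1.2c held 38 in mp clv3, against 0 in WT, and PDF1.2b held 0 in both. The most similar gene to PDF1.2c by protein, PDF1.3, held 4 reads in mp clv3, against 0 in WT. Of these 4 genes, PDF1.2 had the most reads in mp clv3.

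The promoters of the same pair differ in the motifs they hold. The 250 bases before each annotated gene start are printed 5′ to 3′ on the gene's strand, at chr5:17907639-17907888 (minus strand) for PDF1.2 and chr5:17909508-17909757 (minus strand) for PDF1.2c, with capitals marking the GCC-box GCCGCC, which ERF factors bind, the W-box core TTGAC, which WRKY factors bind, and the as-1 core TGACG, which TGA factors bind, each on either strand.
PDF1.2: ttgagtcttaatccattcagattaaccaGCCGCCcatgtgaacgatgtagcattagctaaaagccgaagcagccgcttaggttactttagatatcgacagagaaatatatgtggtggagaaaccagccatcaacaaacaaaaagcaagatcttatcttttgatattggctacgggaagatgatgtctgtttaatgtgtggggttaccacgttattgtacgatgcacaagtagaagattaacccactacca
PDF1.2c: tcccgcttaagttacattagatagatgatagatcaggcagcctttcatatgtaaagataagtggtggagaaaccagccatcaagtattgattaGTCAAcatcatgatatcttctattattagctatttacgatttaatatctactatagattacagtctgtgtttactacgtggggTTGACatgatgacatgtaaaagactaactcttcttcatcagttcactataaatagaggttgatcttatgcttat
PDF1.2 had 1 GCC-box and no match to the W-box or as-1 core in this window. PDF1.2c had no GCC-box and 2 W-box cores.

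The 90 genes were mostly low in mp clv3. Their reads there lay between 20 and 7406 with a median of 87 and quartiles of 40 and 193, against 0 in WT for every one of them. At least 100 reads were held by 41 genes, at least 500 by 15 and at least 1000 by 8. Their sum in mp clv3 was 40652 reads, or 0.0393% of all reads in that genotype, and the 4 genes with the most reads gave 20555, or 50.6% of the sum. Per length, the median level was 0.808 RPKM (reads scaled by gene length and by the total of reads) in mp clv3, against 13.9 RPKM over the 19908 models with at least 20 reads there. An RPKM of at least 1 was reached by 40 genes, and at least 10 by 11.

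A count of 0 in WT still allows a low level, taken here as 3 read pairs, or 6 reads. Against that floor the genes were at least 3.29-fold to at least 1217-fold higher in mp clv3, with a median bound of 14.3-fold. These bounds take the reads in mp clv3 as exact. Counting error in mp clv3, which weighs most on genes with few reads, is not in them. The bound was 10-fold or more for 53 genes and 100-fold or more for 13. In the authors' deposited table, which sets 0 at 0.5 reads, the log2 ratios of the genes lay between 5.30 and 13.83 and all 90 were called higher with a false discovery rate (FDR) under 0.05, with a largest FDR of 5.55e-06. That table called 31.3% of all models higher at this threshold, and since the rule used this contrast nothing is read from the count.

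**Figure D1:**
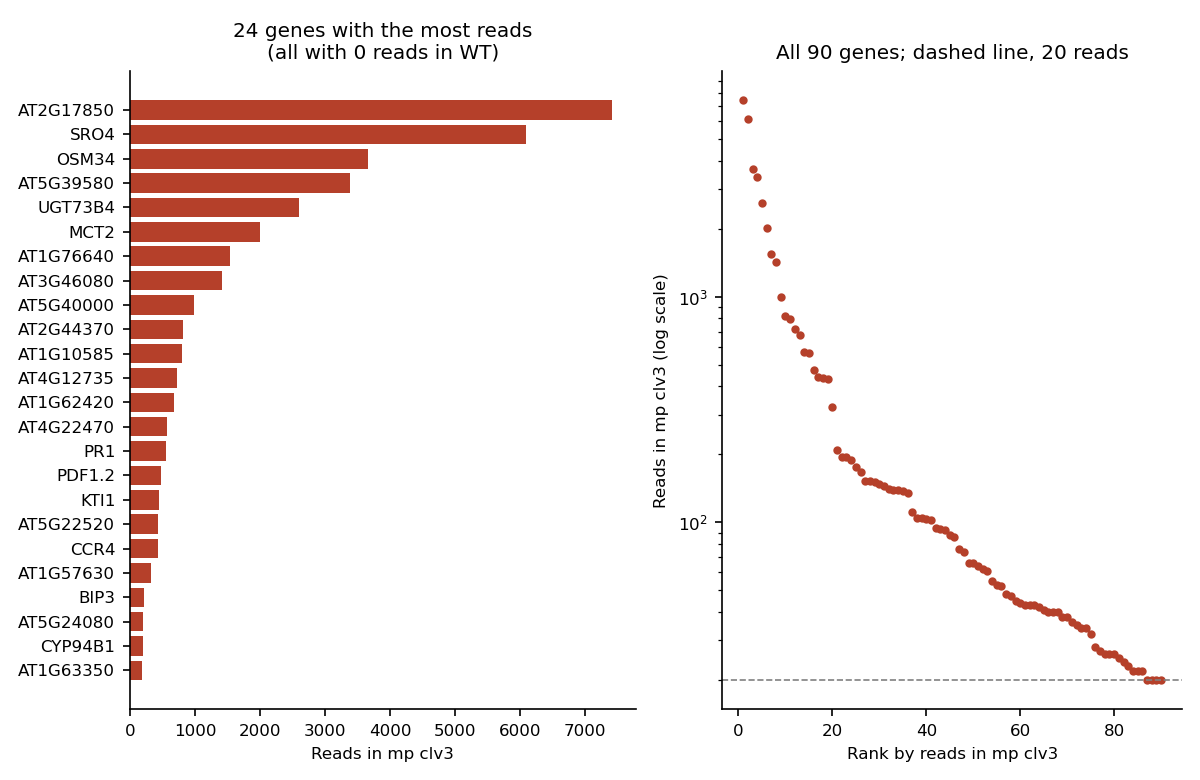
Reads in mp clv3 of the 24 genes with the most reads (left, linear axis) and of all 90 genes by rank (right, log axis, dashed line at the minimum of 20 reads), with 1 value per gene and 0 reads in WT for each. Reads run between 20 and 7406, and 8 genes reach 1000.

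The minimum of 20 reads cuts through a continuous range. Just inside it, 8 genes held 20 to 23 reads in mp clv3, against 0 in WT. Just outside it, 5 models held 18 or 19 reads in mp clv3, against 0 in WT, among them the glutamate receptor GLR2.8 with 18 in mp clv3. In all, 2984 models had 0 reads in WT, of which 2519 also had 0 in mp clv3, 375 had 1 to 19 and 90 met the rule. The WT side of the rule is as gradual: at 20 or more reads in mp clv3, 60 models had 1 or 2 reads in WT, 60 had 3 or 4 and 60 had 5 or 6. In the other direction, 687 models had 0 reads in mp clv3 and at least 20 in WT.

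**Figure D2:**
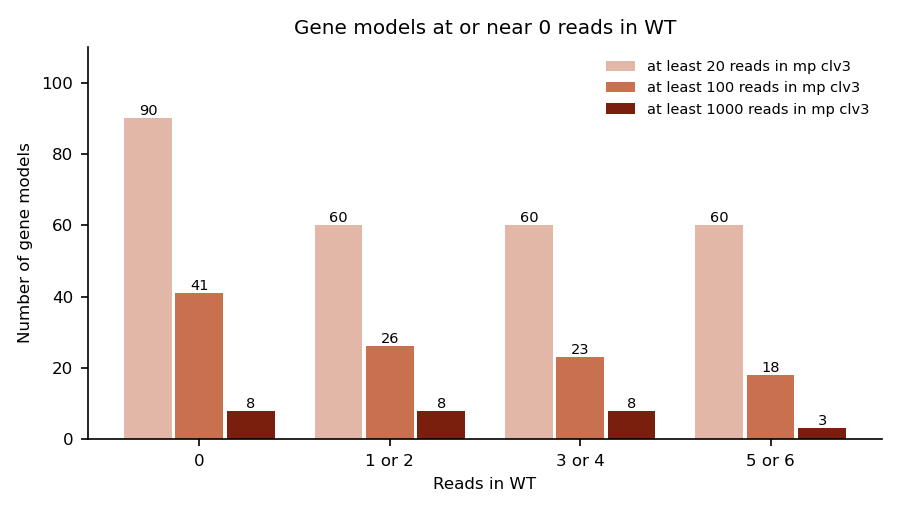
Number of gene models by reads in WT (horizontal axis, 0 to 6 reads) with at least 20, 100 or 1000 reads in mp clv3 (bars from light to dark). The 90 models at 0 reads in WT are followed by 60 in each of the next 3 steps.

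The genes with the most reads were of varied kinds. AT2G17850, which encodes a rhodanese-like protein, held 7406 reads in mp clv3 (142 RPKM), against 0 in WT. SRO4, of the family of RCD1-like stress proteins, held 6095 reads in mp clv3 (50.1 RPKM), against 0 in WT. OSM34, an osmotin of the thaumatin-like pathogenesis-related proteins, held 3666 in mp clv3 (34.1 RPKM), against 0 in WT. Against the WT floor these 3 genes were at least 1217-fold, 1001-fold and 602-fold higher in mp clv3, in that order. The peroxidase AT5G39580 held 3388 reads in mp clv3, against 0 in WT. UGT73B4, a glycosyltransferase that attaches sugars to small molecules, held 2600 in mp clv3, against 0 in WT. MCT2, an RNA-binding protein related to MEI2, held 2005 in mp clv3, against 0 in WT. The EF-hand calcium-binding protein AT1G76640 and the C2H2 zinc finger protein AT3G46080 completed the genes above 1000 reads, with 1542 and 1423 reads in mp clv3, against 0 in WT each.

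None of the members named in the accounts of gene classes that follow had a read in WT, and the reads given are those in mp clv3. Class shares below are set beside those of all models as a description, since some class patterns were extended after the members were seen. By the product names of RefSeq, 13 of the 90 genes (14.4%) encode transcription factors, against 7.60% of all models. 7 of these are basic helix-loop-helix (bHLH) factors, a family with 161 models. AT1G10585 led them with 799 reads in mp clv3, and its neighbour AT1G10586 held 105 in mp clv3. BNQ3, a helix-loop-helix protein thought not to bind DNA itself, held 105 in mp clv3, and BEE3, known as a brassinosteroid-induced factor, held 38 in mp clv3. Of the other 154 bHLH models, 22 (14.3%) were called higher and 51 (33.1%) lower in the authors' deposited table, with an FDR below 0.05 and 2-fold or more, against 9.85% and 21.3% of all models. The other factors included MYB114, known to promote anthocyanin synthesis, with 167 reads in mp clv3. The WRKY factors ABO3 and WRKY38 held 135 and 26 reads in mp clv3. Of the other 75 WRKY models, the authors' deposited table called 30 higher and 12 lower by the same criteria and against the same shares of all models. TDR1, an ERF factor, held 28 in mp clv3.

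Receptors and precursors of signalling peptides formed a second group, and no pairing of these peptides with these receptors was examined. The 4 receptor-like kinases (4.44%, against 1.65% of all models) were led by CCR4, a relative of the maize kinase CRINKLY4, with 431 reads in mp clv3, and by CRK38, a cysteine-rich receptor-like kinase, with 139 in mp clv3. WAKL10, a wall-associated kinase-like protein, held 76 in mp clv3. Of the intracellular immune receptor class, the TIR-domain protein AT1G57630 held 324 reads in mp clv3 and the CC-NBS-LRR protein AT1G63350 held 189 in mp clv3. The glutamate receptor-like channel GLR2.5 held 140 in mp clv3. Precursors of signalling peptides gave 3 genes (3.33%, against 0.318% of all models), each with few reads. Over the whole class, members counted, the authors' deposited table called 7 of 87 models higher and 40 (46.0%) lower. For receptor-like kinases it called 108 of 450 models higher and 89 lower. The criteria were those used for the bHLH models, which 9.85% of all models met as higher and 21.3% as lower. PSK6, a precursor of the growth peptide phytosulfokine, held 45 in mp clv3. PROPEP2, which yields a damage-signalling peptide, and IDA, whose peptide drives the shedding of floral organs, held 40 each in mp clv3.

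Secreted and antimicrobial proteins formed a further group, and C1 domain proteins, for which neither trait is shown here, are listed with them. RefSeq notes placed 27 of the 90 genes (30%) in the endomembrane system, the wall or outside the cell, against 15.5% of all models. They linked 13 (14.4%) to defence against pathogens, against 2.40%. Of all 4236 models with the location note, members counted, the authors' deposited table called 455 higher and 1132 lower by the same criteria. Of all 657 models with the defence note, members counted, it called 188 higher and 134 lower. PR1, a pathogenesis-related protein widely used as a marker of salicylate signalling, held 562 reads in mp clv3 (7.16 RPKM). KTI1, a trypsin inhibitor, held 440 in mp clv3. YLS9, a membrane protein named for its expression in yellowing leaves, held 176 in mp clv3. BG1, a glucanase that cuts the beta-1,3-glucans of cell walls, held 64 in mp clv3. The class of lipid transfer and storage proteins gave 5 genes (5.56%, against 0.813% of all models), among them the cupin AT3G04200 with 55 reads in mp clv3. AT4G22470 held 566 reads in mp clv3, and AZI1, which acts in the priming of systemic immunity, held 66 in mp clv3. Over the whole class, members counted, the authors' deposited table called 23 of 222 models higher and 71 lower by the same criteria. C1 domain proteins, a cysteine- and histidine-rich family, also gave 5 (5.56%, against 0.516%). AT2G44370 held 821 reads in mp clv3, and the other 4, led by AT2G02700, held between 26 and 62 in mp clv3. Of all 141 models of that class, members counted, 18 were called higher and 34 lower by the same criteria. LCR61, the third defensin-like gene, held 25 reads in mp clv3.

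Enzymes, carriers and a chaperone were spread thinly over classes. BIP3, a chaperone of the endoplasmic reticulum, held 210 reads in mp clv3. CYP94B1, a cytochrome P450 that oxidises the jasmonate hormone, held 194 in mp clv3. DAD1, a lipase that starts jasmonate synthesis in anthers, held 43 in mp clv3. NATA1, which acetylates ornithine, held 145 in mp clv3, and PHT3;2, a mitochondrial phosphate carrier, held 148 in mp clv3. The glutathione S-transferases AT5G44990 and GSTU9, which conjugate toxic compounds, held 152 and 86 in mp clv3. Of the 4 oxidoreductases, the 2-oxoglutarate oxygenases AT5G59530 and DIN11 had the most reads, 152 and 93 in mp clv3. Uncharacterised proteins were 14 genes (15.6%, against 12.4% of all models), with AT4G12735 at 720 and AT1G62420 at 673 reads in mp clv3, beside SRO4, whose RefSeq product name is uncharacterized. A further 15 genes fell in no class. The list held 1 gene annotated as a retroelement, AT4G09775, with 53 reads in mp clv3, and no F-box protein, although these are 2.30% of all models.

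**Figure D3:**
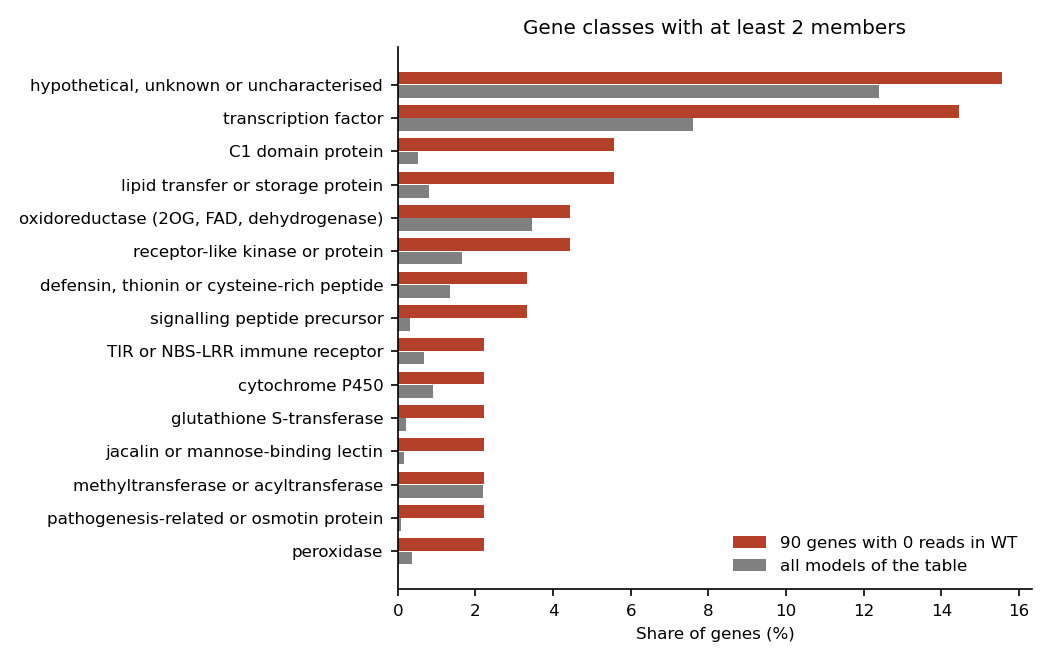
Share of the 90 genes and of all models of the table in each gene class with at least 2 of the 90 (horizontal bars, percent). Transcription factors are 14.4% of the 90 genes and 7.60% of all models, and C1 domain proteins are 5.56% of the 90 genes and 0.516% of all models.

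The pathways to which these genes belong were followed in lists of known genes, with calls taken from the authors' deposited table (FDR below 0.05, 2-fold or more), which 9.85% of all models met as higher and 21.3% as lower. The counts and medians leave out the members themselves. The detoxification list holds 39 genes of chemical and oxidative stress, among them stress genes such as SRO4, AOX1A and HSFA2. Of these, 2 were among the 90 (UGT73B4 and SRO4), and the authors' deposited table called 32 of the other 37 higher and none lower. Their median log2 difference, on reads per total with a floor of 6, was 3.63, against -0.15 over all models. The list was chosen with earlier results of these data known and does not hold whole families. Of all 58 glutathione S-transferase models, members counted, 25 were called higher and 8 lower by these criteria. Of all 143 UDP-glycosyltransferase models, members counted, 33 were called higher and 32 lower. Of 17 salicylate response genes, with PR1 among the 90, the authors' deposited table called 9 of the other 16 higher and none lower, with a median log2 difference of 1.98. The salicylate synthesis gene ICS1 (EDS16) had 1101 reads in mp clv3, against 831 in WT, and ALD1 and FMO1, which act in systemic acquired resistance, had 0 in both. Of 24 jasmonate and wounding genes, with PDF1.2 and PDF1.2c among the 90, the authors' deposited table called 14 of the other 22 higher and 3 lower, with a median log2 difference of 2.32. The ERF factors known to act on PDF1.2 differed: ERF1 had 776 reads in mp clv3, against 18 in WT, and ORA59 had 226 in mp clv3, against 197 in WT. Of 22 abscisic acid and osmotic response genes, with OSM34 among the 90, the authors' deposited table called 2 of the other 21 higher and 12 lower, with a median log2 difference of -1.32. The salicylate list entered AGD2 at AT1G60860 and the abscisic acid list entered RAB18 at AT1G43890. That these loci belong to those pathways was not checked, and neither was called higher or lower by these criteria. No gene of the low oxygen or camalexin lists was among the 90, although the authors' deposited table called 11 of 12 low oxygen genes higher and none lower, and 7 of 9 camalexin genes higher and 1 lower.

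Many of the 90 genes had relatives next to them. Proteins were called similar at 40% identity or more over at least 60% of the longer protein. Of the 89 genes with a RefSeq protein, 75 had a similar protein in the table and 46 (51.7%) had 1 within 5 genes on the same chromosome, against 14.7% of all 26634 models compared the same way. The identity to the most similar protein had a median of 70.9% and a maximum of 96.5%, and it reached 90% for 4 genes. The members' proteins were short, with a median of 241 amino acids against 354 over all models, and 34 (38.2%) had a single exon against 20.6%.

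The genes also lay next to each other. Another member lay within 5 genes of 15 of the 90 (16.7%), and a member lay within 5 genes of 3.02% of the other models. They formed 7 runs, of which 6, with 13 genes, joined similar proteins. The runs were the bHLH genes AT1G10585 and AT1G10586, described above, the DUF1262 genes AT1G13480 and AT1G13520 with 20 and 36 reads in mp clv3, and the C1 domain genes AT2G44370 and AT2G44390 with 821 and 26 in mp clv3. The others were the jacalin-related lectins JAL31 and JAL33 with 74 and 34 in mp clv3, the lipid transfer genes AZI1, EARLI1 and AT4G12490 with 66, 26 and 42 in mp clv3, and the defensins PDF1.2 and PDF1.2c. All of these had 0 reads in WT. BNQ3 and SRO4 formed the run without similarity. By chromosome the 90 genes were spread widely, with 22, 14, 12, 14 and 27 on chromosomes 1 to 5 and 1 in the mitochondrial genome. None of the 1097 models within 2 Mb of MP was a member, and 3 of the 980 models within 2 Mb of CLV3 were, a share close to the 0.329% of all models.

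The lipid transfer run shows the pattern of a tandem array. AZI1, EARLI1, AT4G12490 and AT4G12500 are consecutive genes on chromosome 4 and held 66, 26, 42 and 12 reads in mp clv3, against 0 in WT each, whereas the next copies AT4G12510 and AT4G12520 held 0 in both genotypes. The promoters of AZI1 and EARLI1 are printed for comparison, at chr4:7401952-7402201 for AZI1 and chr4:7406995-7407244 for EARLI1, both on the minus strand and written 5′ to 3′, with capitals marking W-box and as-1 cores on either strand.
AZI1: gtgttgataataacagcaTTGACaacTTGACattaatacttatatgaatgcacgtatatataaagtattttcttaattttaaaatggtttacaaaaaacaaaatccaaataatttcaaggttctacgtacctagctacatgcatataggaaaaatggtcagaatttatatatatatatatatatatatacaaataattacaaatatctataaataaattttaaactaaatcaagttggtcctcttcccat
EARLI1: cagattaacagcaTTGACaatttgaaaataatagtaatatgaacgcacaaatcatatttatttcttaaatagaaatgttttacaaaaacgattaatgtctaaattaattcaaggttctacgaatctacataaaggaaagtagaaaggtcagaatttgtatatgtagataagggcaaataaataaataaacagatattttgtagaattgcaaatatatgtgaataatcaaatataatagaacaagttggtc
AZI1 had 2 W-box cores, and EARLI1 had 1. No as-1 core lay in these windows.

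The rule did not use the reads of similar genes near the 90, although these come from the same columns and genes that met the rule are left out. There were 72 such genes outside the set. Of these, 26 had 6 reads or fewer in both genotypes. Of the 46 above that floor, 27 (58.7%) were at least 2-fold higher in mp clv3, 7 (15.2%) were at least 2-fold lower and 12 lay between. A gene with 6 reads or fewer in WT, such as ZAT7 or CRK39, passed the floor through mp clv3 only and could not count as lower. A gene with 6 reads or fewer in mp clv3 could likewise not count as higher, here and in the shares below. Over all 23060 models above the floor, 11.2% were at least 2-fold higher and 23.3% at least 2-fold lower on the same scale. Similar genes elsewhere in the genome, 313 above the floor, were at least 2-fold higher for 27.5% and lower for 29.1%. Immediate neighbours without similarity, 77 above the floor, were at least 2-fold higher for 18.2% and lower for 11.7%. Neighbouring genes share position and genes of a family share function, so these counts are not over independent genes, and no test was made.

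The nearby relatives included genes with a higher level per length than the member beside them. CML38, a calmodulin-like gene next to AT1G76640, had 26769 reads in mp clv3 (337 RPKM), against 196 in WT (2.51 RPKM), and AT1G76640 itself had 31.1 RPKM in mp clv3. BGL2, the salicylate marker also called PR2 and the neighbour of BG1, had 23354 in mp clv3 (181 RPKM), against 18 in WT, and BG1 had 0.519 RPKM in mp clv3. MSRB9, which repairs oxidised methionine and lies beside MSRB8, had 15418 in mp clv3 (188 RPKM), against 443 in WT, and MSRB8 had 0.601 RPKM in mp clv3. The relative had reads in WT in each of these pairs, and the rule itself left the member without any. The bounds for BG1 and MSRB8, at least 10.5-fold and 7.23-fold, lay below the ratios of BGL2 (1279-fold) and MSRB9 (34.3-fold). Those pairs therefore cannot show if the copies differ in their ratio of mp clv3 to WT. For AT1G76640 the bound, at least 253-fold, lay above the 135-fold ratio of CML38. ZAT7, a zinc finger gene similar to AT3G46080, had 1316 reads in mp clv3 (20.1 RPKM), against 4 in WT, and AT3G46080 had 27.8 RPKM in mp clv3. PBP1, the jacalin-related lectin next to JAL31, had 4014 in mp clv3, against 50 in WT. AT5G64120, a peroxidase near AT5G64100 and the gene most similar to AT5G39580, had 10537 in mp clv3, against 70 in WT. The CRK genes around CRK38 differed in degree, with CRK39 at 562 reads in mp clv3, against 2 in WT and CRK36 at 155 in mp clv3, against 111 in WT.

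Other relatives went the opposite way or did not differ by 2-fold. PUM9, which neighbours the Pumilio RNA-binding gene PUM10, had 0 reads in mp clv3, against 196 in WT, whereas PUM10 had 137 in mp clv3, against 0 in WT. CYP76C1 had 155 in mp clv3, against 1461 in WT, while CYP76C2 had 4294 in mp clv3, against 272 in WT. They are 2 genes and 1 gene away from the member CYP76C3, which had 43 in mp clv3, against 0 in WT. AT2G39020, beside NATA1, had 5097 in mp clv3, against 5556 in WT. The neighbour of PR1, PRB1, had 0 reads in both genotypes. Among relatives elsewhere, SRO5, the closest to SRO4, had 15185 in mp clv3, against 654 in WT, and CYP94B3, the closest to CYP94B1, had 675 in mp clv3, against 39 in WT. BIP1, the closest to BIP3, had 31616 in mp clv3, against 43061 in WT, PHT3;1, the closest to PHT3;2, had 25683 in mp clv3, against 34550 in WT, and AT1G75050, the closest to OSM34, had 23 in mp clv3, against 2000 in WT. NHL2, the closest to YLS9, had 860 in mp clv3, against 1864 in WT, and MYB66, the closest to MYB114 within the limits on identity and length, had 16 in mp clv3, against 14 in WT. MYB90, which shares 3.90% of the 50-base windows of MYB114 but did not meet those limits, had 97 in mp clv3, against 20 in WT. BS1, the closest to BNQ3, had 2 in mp clv3, against 0 in WT.

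**Figure D4:**
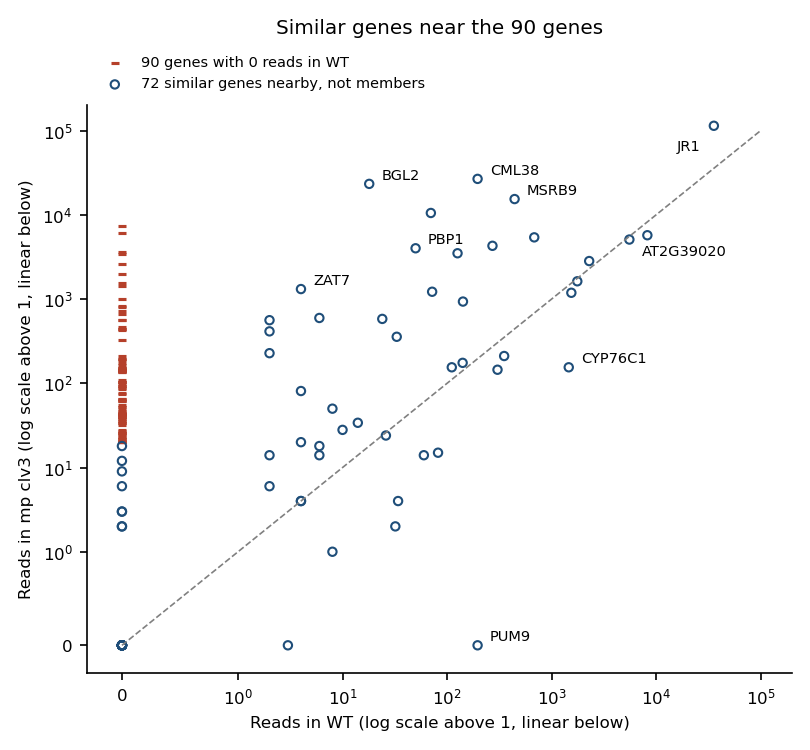
Reads in mp clv3 (vertical axis) against reads in WT (horizontal axis) of the 90 genes (dashes at 0 in WT) and of the 72 similar genes near them (circles), both axes logarithmic above 1 and linear below, with a dashed line of equal reads. Of the 46 circles above 6 reads in either genotype, 27 are at least 2-fold higher in mp clv3, and PUM9 lies at 0 in mp clv3, against 196 in WT.

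Reads cannot be assigned to 1 gene where copies share sequence, and the rule for placing reads that match several genes is not given in the labels. An exact stretch of 100 bases, the read length, was shared with another transcript by 4 members, and the values of those members are therefore uncertain. MSRB8 shared 15.0% of its windows with MSRB7, which had 34 reads in mp clv3, against 14 in WT. UGT73B4 shared 2.61% with its neighbour UGT73B5, which had 3503 in mp clv3, against 126 in WT, and the annotated span of UGT73B4, 1866 bases long, lies wholly inside that of UGT73B5 on the same strand. AT1G51010 and JAL31 shared 0.973% and 0.0818% of theirs. In all, 6 members overlap another annotated gene. SRO4 overlaps ABCA2, on the opposite strand, by 73 bases, and ABCA2 had 16914 reads in mp clv3, against 3311 in WT. AT1G66870 and GLR2.5 also overlap genes on the opposite strand. The libraries were strand-specific per the labels, and the labels do not say if strand was used in counting.

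The promoters were searched for short motifs bound by stress-related factors, on both strands of the 250 bases before the annotated start. The W-box core TTGAC was present in 60 of 89 promoters (67.4%), against 44.9% of all 26634 promoters, and the as-1 core TGACG, which can overlap it, in 26 (29.2%), against 18.6%. The ABRE core ACGTG, an abscisic acid response element that the G-box contains, was present in 34 (38.2%), against 23.1%, and the whole G-box CACGTG in 7 (7.87%), against 6.59%. The GCC-box GCCGCC was present in 7 promoters (7.87%), against 1.86%: those of AT2G17850, OSM34, AT4G12735, PDF1.2, AT5G24080, YLS9 and AT5G10625. The heat shock unit GAANNTTC was found in 12.4%, against 9.46%, and the auxin response core TGTCTC in 12.4%, against 10.9%. The mitochondrial dysfunction motif core, which membrane-released NAC factors bind, was found in 8.99%, against 7.91%. Promoters of tandem copies are related to each other, and a match describes letters, not binding.

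**Figure D5:**
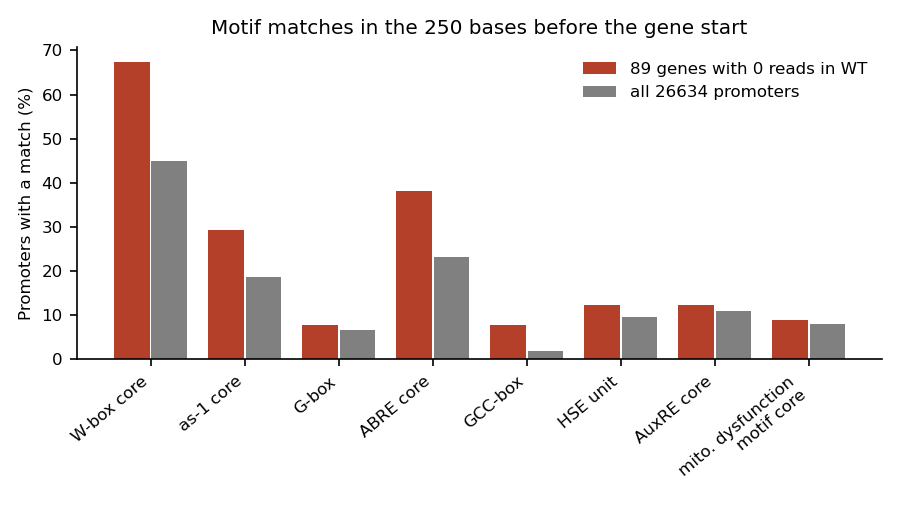
Share of promoters (percent, vertical axis) with at least 1 match on either strand to each motif, for 89 of the 90 genes and for all 26634 promoters. The W-box core is found in 67.4% and 44.9%, and the GCC-box in 7.87% and 1.86%, of these sets in that order.

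The promoter of UGT73B4, from the detoxification list, is shown with the same marking of W-box and as-1 cores, 5′ to 3′ on the plus strand, at chr2:6761385-6761634, a window that lies inside the annotated span of UGT73B5.
UGT73B4: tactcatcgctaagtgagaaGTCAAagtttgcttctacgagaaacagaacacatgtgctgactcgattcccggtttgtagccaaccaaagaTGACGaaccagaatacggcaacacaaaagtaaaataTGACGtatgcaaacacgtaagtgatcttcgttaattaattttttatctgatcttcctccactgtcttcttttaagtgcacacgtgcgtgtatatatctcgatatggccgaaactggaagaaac
UGT73B4 had 1 W-box core and 2 as-1 cores. SRO4, the gene with the second most reads, had neither motif in its window.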

How the data were processed

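RNA was measured as poly(A) RNA in strand-specific paired libraries, per the labels' protocols. CASAVA 1.7, BWA and the build TAIR10 are named in the submitters' processing notes, without their roles. The read numbers deposited by the authors were handled as estimated counts: whole numbers, except that 0 was written as 0.5, which was set back to 0. The deposited RPKM values are read numbers per length and per total. The log2 ratio deposited by the authors is of RPKM in mp clv3 over WT. The FDR in the authors' deposited table is an adjusted p-value whose test no source names. The table holds no replicate columns. The highest level that 0 reads allows (6 reads, that is 3 read pairs) and the intervals therefore cover counting error only. All sample columns were used.

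The members, lists and tests were chosen with earlier results of these data known. The patterns for gene classes were extended after the members were seen, and the annotation terms and housekeeping genes were chosen after the files were opened. The table holds no coordinates; genes were looked up by locus in RefSeq (TAIR10.1), which matched 26643 of 27322 models and 89 of 90 members, all but ATMG01300. Proteins were translated from the longest RefSeq coding sequence per gene and compared with blastp 2.17.0 at an E-value of 1e-05. Sequences were read with Biopython 1.88 on Python 3.11.15. TMM scaling in edgeR 4.0.16 was used as an alternative for the totals only. The selection and the ratio were run on simulated data with planted zeros in WT. The outcome was fixed by the planting and the formula, so this checks the calculation only. Named were the 12 members with a symbol and the most reads, the 10 with a symbol and the highest RPKM, the 2 with the most reads in each class of at least 3, members of runs and of the lists, and the most similar gene of the members named by reads or RPKM. The retroelement, the peptide, receptor and enzyme genes under these ranks, and the neighbours given as examples, were chosen after their values were seen.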

Additional observations from a re-analysis of the deposited data

How the results depend on the processing

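The number of genes, 90, depended on the thresholds: it was 142, 56 and 41 with a minimum of 10, 50 and 100 reads in mp clv3, 40 with a minimum of 1 RPKM, 150 with up to 2 reads allowed in WT and 270 with up to 6. The median bound of 14.3-fold was 28.6 with a floor of 3 reads and 9.08, 1.81 and 1.16 on RPKM with pseudocounts of 0.1, 1 and 5, which understate low genes; with TMM scaling it was 15.3. The number of genes with a similar gene nearby, 46, lay between 36 and 48 over the other identity and distance limits. The 4 genes with a similar protein at 90% identity became 18 at 80% and 2 at 95%. The 4 genes sharing a stretch of 100 bases became 21 with 50 bases, a length chosen after seeing the data. All 90 genes were also under an FDR of 0.01 in the authors' deposited table. With at least 100 reads required, each class of at least 3 genes shrank, for example to 7 transcription factors and to 1 C1 domain protein.

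No paired analysis was possible because the table has 1 column per genotype, and leaving out replicates was not run for the same reason. Depth limits the low genes most: with 20 reads in mp clv3, taken as exact, and 0 in WT the bound is 3.29-fold.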

Other observations

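A further 60 genes had at least 20 reads in mp clv3 and 1 or 2 reads, at most 1 read pair, in WT, with a median of 78 reads in mp clv3. The first of them, AT3G29970, a B12D-family protein, had 6420 reads in mp clv3, against 2 in WT, which is a 3164-fold ratio with a counting interval (exact, 95%) of 568 to 125024. The TRAF-like genes AT4G09780 and AT5G26280 had 3244 and 2169 reads in mp clv3, against 2 in WT each. AT3G28600, a P-loop protein of the kind found at AT5G40000, had 2598 in mp clv3, against 2 in WT. TH8, a thioredoxin, had 1115 in mp clv3, against 2 in WT, and CCOAMT, a methyltransferase of phenylpropanoid metabolism, had 1102 in mp clv3, against 2 in WT. FRK1, a receptor kinase known as a marker of the response to bacterial flagellin, had 383 in mp clv3, against 2 in WT. CLV3 itself belonged to these genes. So few reads in bulk WT apices do not show that a gene is off in all of their cells.

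Among the 687 models with 0 reads in mp clv3 and at least 20 in WT, 69 (10.0%) encode F-box proteins, against 2.30% of all models and 0 of the 90 genes. The W-box core was in 39.8% of their promoters, against 67.4% for the 90 genes and 44.9% for all promoters.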
